A study of Mus musculus with 11 samples.

Results

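The genes described here make cholesterol from acetyl-CoA, set the pace of that synthesis, and take up, store or export the product. They were taken from a list of 32 mouse genes by matching each name to the gene names of the deposited table. A row was found for 30 of the 32, out of 14700 rows in all. All 30 were among the 14478 genes with enough counts to be tested. The expression of the other 2, Pmvk and Mylip, was not analysed here, and they enter only the promoter counts. The 30 comprise 17 enzymes of the synthesis pathway and 13 genes of control, uptake, storage and efflux.

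The samples were whole lungs of C57BL/6 mice that were 8 weeks old. The treated mice received bleomycin at 3 U/kg in 50 µL into the trachea at day 0 (5 libraries), and the control mice received saline in the same volume by the same route (6 libraries). Lungs were collected at day 3, and polyadenylated RNA was sequenced. Bleomycin is a glycopeptide that breaks DNA and is used to injure the lung in mice. The labels name no transgene or other agent in either group, and they do not say whether the samples are separate animals. The p-values therefore refer to the spread among these samples, part of which may be technical.

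Cholesterol synthesis runs from acetyl-CoA through mevalonate and farnesyl diphosphate to squalene, which is closed into lanosterol and then trimmed to cholesterol. The transcription factors SREBP1 and SREBP2 switch the enzyme genes on: when sterols are scarce, the escort protein SCAP carries them to the Golgi for cutting, and when sterols are plentiful, INSIG proteins hold SCAP in the endoplasmic reticulum. Nuclear receptors of the LXR family respond to oxysterols and switch on the exporters ABCA1 and ABCG1. In the lung, alveolar type 2 cells put cholesterol into surfactant, and alveolar macrophages take surfactant lipid up again and export its cholesterol.

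SREBPs bind the sterol regulatory element, written TCACNCCAC here, and usually act together with NF-Y, which binds CCAAT. Promoter windows from RefSeq (GRCm38.p6, 250 bases before to 50 bases after each gene's start) were matched by symbol for 26 of the 32 listed genes. Every motif was searched on both strands, and a gene with several windows was counted if any of them held the motif. The 9-letter element was found in 1 of the 26, Hmgcs1, and in 1.44% of the 27025 genes in the table. CCAAT was found in 21 of the 26 and in 13 of the 14 synthesis enzymes measured here that had a window, against 41.1% of all genes and 42.1% of the tested genes with a window. The E-box CACGTG was found in 6 of the 26, against 8.09% of all genes and 11.0% of the tested genes with a window. The LXR element of the DR4 type was searched only as a perfect repeat. That form was found in 0 of the 26, against 4 of the 27025 genes (0.0148%). So rare a form is unlikely to appear among 26 genes, and its absence does not show that these promoters lack an LXR element. A match describes letters in a window and is not a binding site. Only exact letters were searched, so a window without a match may still hold a looser form of a motif.

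The 250 bases before the start are shown for Hmgcs1, which holds the sterol regulatory element, and for the 3 enzyme genes that rose. Capitals mark the sterol regulatory element and CCAAT, which reads ATTGG where it lies on the other strand. Each sequence runs 5′ to 3′ towards the gene's start.
Hmgcs1, chr13:119690101-119690350, strand +: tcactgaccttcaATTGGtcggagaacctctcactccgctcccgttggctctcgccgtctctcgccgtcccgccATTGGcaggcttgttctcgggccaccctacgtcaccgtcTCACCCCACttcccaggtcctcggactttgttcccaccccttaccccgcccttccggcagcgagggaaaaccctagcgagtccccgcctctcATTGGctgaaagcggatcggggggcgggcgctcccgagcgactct
Lss, chr10:76531355-76531604, strand +: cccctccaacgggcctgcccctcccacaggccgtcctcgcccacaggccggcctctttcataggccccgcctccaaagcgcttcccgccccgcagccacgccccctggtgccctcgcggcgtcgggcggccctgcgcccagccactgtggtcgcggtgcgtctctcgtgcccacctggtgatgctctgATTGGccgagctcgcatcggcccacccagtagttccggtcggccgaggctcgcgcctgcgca
Hsd17b7, chr1:169969206-169969455, strand -: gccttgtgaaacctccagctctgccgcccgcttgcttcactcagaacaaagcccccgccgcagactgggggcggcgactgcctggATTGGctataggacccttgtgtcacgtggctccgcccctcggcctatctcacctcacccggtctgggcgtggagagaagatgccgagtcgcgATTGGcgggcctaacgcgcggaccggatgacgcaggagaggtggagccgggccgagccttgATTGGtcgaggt
Mvk, chr5:114444019-114444268, strand +: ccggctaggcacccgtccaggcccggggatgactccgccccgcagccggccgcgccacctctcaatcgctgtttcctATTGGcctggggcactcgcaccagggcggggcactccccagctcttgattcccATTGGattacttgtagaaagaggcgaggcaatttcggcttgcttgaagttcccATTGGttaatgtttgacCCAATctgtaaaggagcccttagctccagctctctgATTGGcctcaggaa
In Hmgcs1 the sterol regulatory element began 137 bases before the start, among 3 CCAAT motifs. Mvk had 5 CCAAT motifs in this stretch, Hsd17b7 had 3 and Lss had 1, and the full sterol regulatory element was in none of these 3 windows.

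After bleomycin, 6 of the 30 genes rose and 0 fell by edgeR's quasi-likelihood test, with p-values adjusted by Benjamini-Hochberg over all 14478 genes and a threshold of 0.05. Across all genes tested, 4.63% rose and 5.7% fell. The 6 were 3 synthesis enzymes, Lss, Hsd17b7 and Mvk, and 3 genes of the SREBP machinery, Srebf1, Srebf2 and Scap. At an unadjusted p under 0.05, 9 genes were higher and 1, Soat1, was lower, beside 13.4% of all genes higher and 16.6% lower. DESeq2 called Soat1 as lower and 7 genes as higher, the same 6 and Insig1, beside 11.3% of all genes called as lower and 8.6% as higher. The median log2 fold change of the 30 was 0.28, beside -0.04 over all genes tested, and 22 of the 30 were above 0, beside 47.0% of all genes. In bulk tissue, fewer cells of a type and less RNA per cell cannot be told apart, and this holds for every value here.

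**Figure D1:**
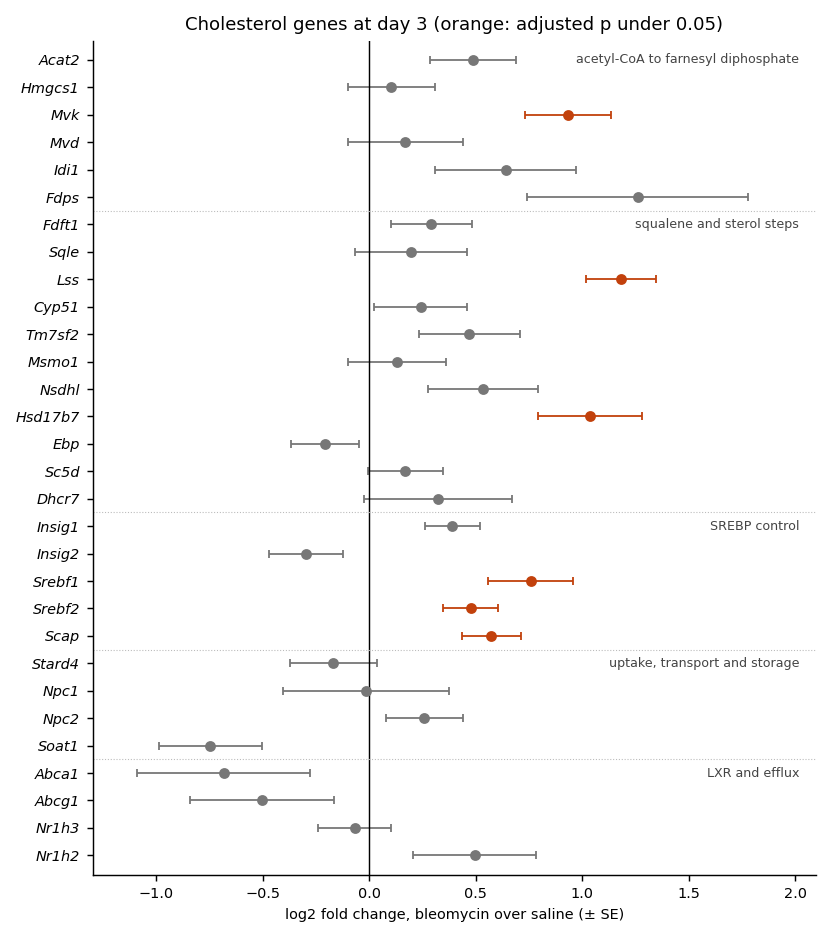
Log2 fold change of bleomycin over saline (x axis) for the 30 genes in order of their role (y axis), with the standard error as bars (5 bleomycin and 6 saline libraries). The 6 genes past the threshold are orange: Lss at 1.18, Hsd17b7 at 1.04, Mvk at 0.93, Srebf1 at 0.76, Scap at 0.57 and Srebf2 at 0.48.

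Among the genes that turn acetyl-CoA into farnesyl diphosphate, Mvk, which encodes mevalonate kinase, rose and the other 5 did not pass the test. The median log2 fold change of the 6 was 0.56, and all 6 values were above 0. Levels are given as CPM, in which counts are set to 1 shared library size by TMM factors. Mvk had 16.3, 27.4, 24.7, 37.2 and 30.9 CPM in bleomycin libraries 1 to 5, against a lowest, median and highest of 11.5, 13.8 and 18.0 CPM in saline libraries. Bleomycin 1 lay within the saline range and the other 4 bleomycin libraries above it. The log2 fold change was 0.93 ± 0.20 (SE; edgeR's quasi-likelihood test, adjusted p = 0.0183).

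Fdps, which encodes farnesyl diphosphate synthase, had the widest error of these genes. It had 0.754, 2.67, 2.28, 2.73 and 3.02 CPM in bleomycin libraries 1 to 5, against a lowest, median and highest of 0.254, 0.835 and 2.38 CPM in saline libraries. The groups overlapped through bleomycin 1 and saline 6, and the log2 fold change of 1.26 ± 0.52 (SE) did not pass (edgeR's adjusted p = 0.129). Its counts, from 4 to 58 per library, are uncertain. In the GENCODE M21 annotation 26.7% of its exon bases, taken over all 7 transcripts, are shared with Gm43738 on the same strand. The shared bases number 1124, beside 1382 bases in the longest coding transcript of Fdps. Which part of that transcript is shared was not examined. How the counting treated shared bases is not given in the sources used here. Without saline 6 Fdps passed (1.77, edgeR's adjusted p = 0.0310).

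Idi1, the isomerase of the isoprenoid units, had a log2 fold change of 0.64 ± 0.33 (SE; edgeR's adjusted p = 0.214), and Acat2, the thiolase that opens the pathway, 0.49 ± 0.20 (adjusted p = 0.129). For Acat2 all 5 bleomycin libraries lay between 31.1 and 40.8 CPM, against 15.3 to 32.1 CPM in saline libraries, where saline 2 and 3 were the lowest. Hmgcs1, the HMG-CoA synthase, averaged 97.3 ± 23.2 CPM in bleomycin libraries and 90.5 ± 20.6 CPM in saline libraries (SD, n = 5 and 6; log2 fold change 0.10). Mvd, which decarboxylates mevalonate diphosphate, averaged 24.5 ± 1.90 CPM in bleomycin libraries and 21.8 ± 9.77 CPM in saline libraries (log2 fold change 0.17). The saline SD of Mvd was carried by saline 2 and 3, at 36.8 and 30.4 CPM, above all bleomycin libraries. Without those 2 libraries Mvd passed the test, at 0.63 (adjusted p = 0.0346).

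From squalene to cholesterol, 2 of the 11 genes rose, Lss and Hsd17b7, beside 4.63% of all genes tested. The median log2 fold change of the 11 was 0.29, and 10 of the 11 values were above 0. Lss encodes lanosterol synthase, which closes squalene epoxide into the first sterol. It had 50.8, 38.3, 33.6, 51.5 and 48.7 CPM in bleomycin libraries 1 to 5, against a lowest, median and highest of 15.8, 18.9 and 24.4 CPM in saline libraries. Every bleomycin library lay above every saline library, which was so for 3.99% of all genes tested. The rise was 2.27-fold, with a log2 fold change of 1.18 ± 0.16 (SE) by edgeR's quasi-likelihood test (adjusted p = 0.00281). An approximate 95% interval, which takes the estimate as normally distributed, was 0.86 to 1.51. With so few libraries it is somewhat too narrow. Lss passed whichever of the 11 libraries was left out, with a highest adjusted p of 0.0119.

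Hsd17b7 encodes a reductase that works on sterol ketones when the methyl groups of lanosterol are taken off. It had 19.8, 19.4, 10.1, 27.2 and 20.9 CPM in bleomycin libraries 1 to 5, against a lowest, median and highest of 7.48, 8.95 and 13.2 CPM in saline libraries. Bleomycin 3 lay within the saline range and the other 4 bleomycin libraries above it. The rise was 2.05-fold (log2 1.04 ± 0.24, SE; edgeR's adjusted p = 0.0241). Leaving out bleomycin 2, 4 or 5 ended its call, with adjusted p up to 0.0632.

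The other 9 genes of this stretch did not pass. Nsdhl, a sterol dehydrogenase of the same demethylation complex, had 8.14, 20.7, 24.3, 26.5 and 26.7 CPM in bleomycin libraries 1 to 5, against a lowest, median and highest of 12.7, 14.4 and 17.1 CPM in saline libraries. Bleomycin 1 was below all saline libraries and the other 4 bleomycin libraries were above them. Its log2 fold change was 0.53 ± 0.26 (SE; edgeR's adjusted p = 0.185), and without bleomycin 1 it was 0.74 and passed (adjusted p = 0.0133).

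Tm7sf2, a sterol reductase, had a log2 fold change of 0.47 ± 0.24 (SE) at low counts of 55 to 184 per library, and it shares 12.1% of its exon bases with Vps51 on the same strand. Dhcr7, a reductase of the last steps to cholesterol, averaged 17.3 ± 7.18 CPM in bleomycin libraries and 13.8 ± 4.63 CPM in saline libraries (SD, n = 5 and 6). Its bleomycin values ran from 5.50 CPM in bleomycin 1 to 23.5 CPM in bleomycin 3, and the whole saline range of 7.42 to 18.8 CPM lay between them. Fdft1, the squalene synthase, Sqle, the squalene epoxidase, Cyp51, the lanosterol demethylase, Sc5d, a sterol desaturase, and Msmo1, a methylsterol oxidase, had log2 fold changes of 0.29, 0.20, 0.24, 0.17 and 0.13. Fdft1 shares 18.3% of its exon bases with Ctsb on the opposite strand. The adjusted p-values of these 5 genes in edgeR's quasi-likelihood test ran from 0.315 to 0.730. Ebp, a sterol isomerase, was the enzyme below 0, at -0.21 ± 0.16 (SE; adjusted p = 0.394).

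**Figure D2:**
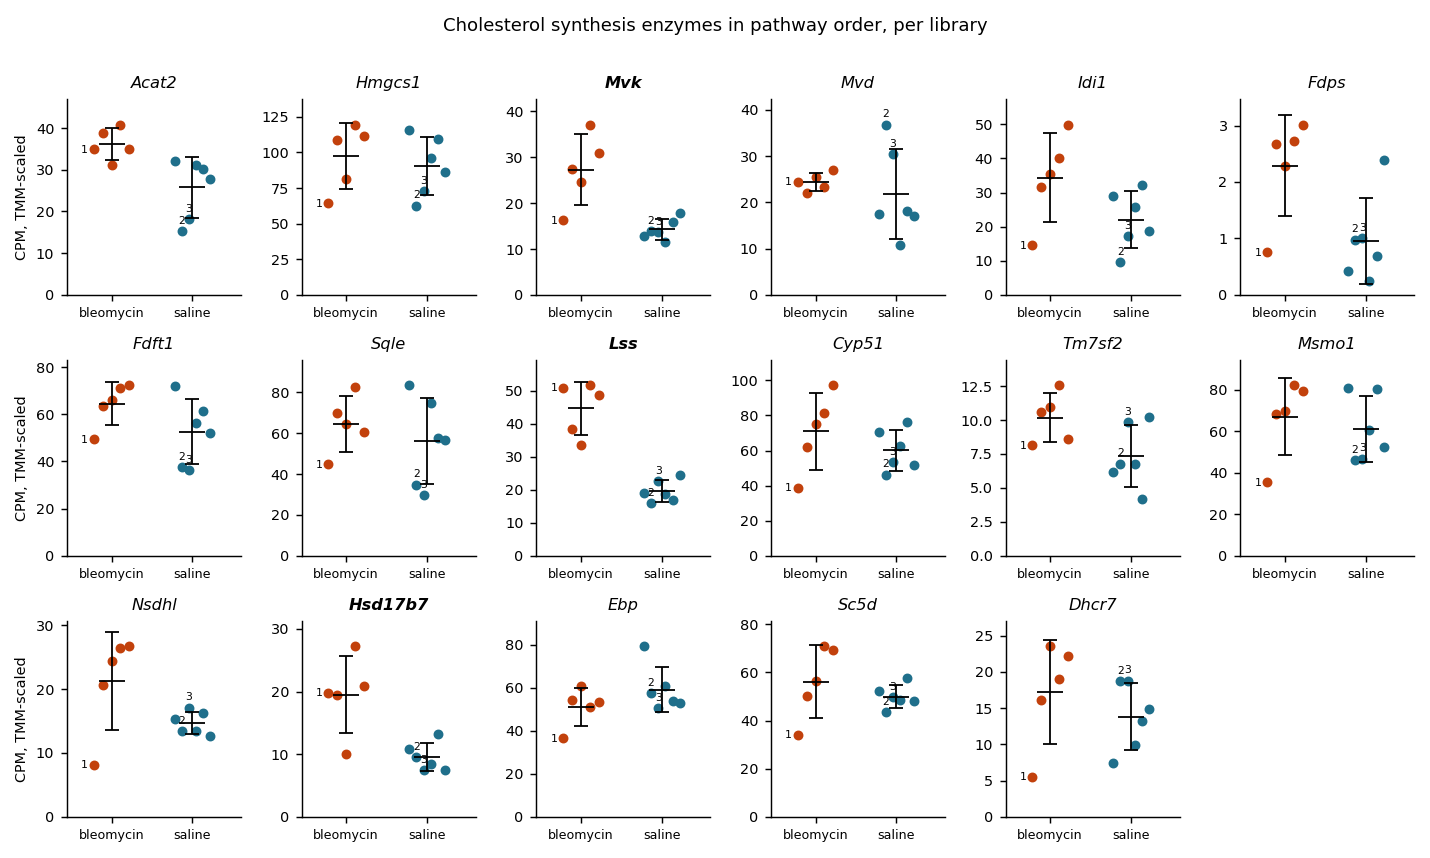
CPM after TMM scaling (y axis, from 0) of the 17 synthesis enzymes in pathway order, in 5 bleomycin and 6 saline libraries (x axis). Points are libraries, lines are the mean ± SD, and titles in bold mark genes that rose. Bleomycin 1 and saline 2 and 3 are numbered: bleomycin 1 is the lowest bleomycin library for 13 of the 17 genes but not for Lss, where it had 50.8 CPM.

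Bleomycin 1 stood apart from the other bleomycin libraries over the pathway. It was the lowest bleomycin library for 13 of the 17 enzymes and the highest for 0 of them, while over all genes it was the lowest for 34.2% and the highest for 34.3%. The CPM summed over the 17 enzymes was 487, 704, 696, 839 and 817 in bleomycin libraries 1 to 5, against a lowest, median and highest of 470, 575 and 704 in saline libraries. Bleomycin 1 was thus near the lower end of the saline range, and the other 4 bleomycin libraries were at or near its upper end or above it. Saline 2 and 3 had the lowest saline sums, at 470 and 495, and the highest was 704 in saline 1. Without bleomycin 1, the median log2 fold change of the 17 enzymes was 0.50, beside 0.32 with it. In that fit 4 of them rose, beside 4.67% of all genes.

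Of the 5 genes that control SREBP, Srebf1, Srebf2 and Scap rose, beside 4.63% of all genes tested. The median log2 fold change of the 5 was 0.48. None of the 5 passed when bleomycin 2, 4 or 5 was left out. For each of the 3 that rose, every bleomycin library lay above every saline library, which was so for 3.99% of all genes tested. Srebf2, which encodes the SREBP that mainly drives cholesterol synthesis, had 201, 167, 186, 179 and 182 CPM in bleomycin libraries 1 to 5, against a lowest, median and highest of 108, 132 and 152 CPM in saline libraries. The rise was 1.39-fold (log2 0.48 ± 0.13, SE; edgeR's adjusted p = 0.0376).

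Scap, the escort of both SREBPs, had 64.9, 52.9, 56.0, 58.4 and 60.4 CPM in bleomycin libraries 1 to 5, against a lowest, median and highest of 30.4, 41.2 and 47.1 CPM in saline libraries. The lowest bleomycin library was bleomycin 2 and the highest saline library saline 3. The rise was 1.49-fold (log2 0.57 ± 0.14, SE; edgeR's adjusted p = 0.0260). Scap shares 13.2% of its exon bases with 5830462I19Rik on the opposite strand in the GENCODE M21 annotation, and whether the counting used strand is not given in the sources used here.

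Srebf1, whose product drives fatty acid genes more than cholesterol genes, had 186, 93.0, 107, 92.7 and 98.6 CPM in bleomycin libraries 1 to 5, against a lowest, median and highest of 58.0, 65.1 and 84.8 CPM in saline libraries. Bleomycin 1 was far above the other 4 bleomycin libraries, which were themselves above all saline libraries. The rise was 1.69-fold (log2 0.76 ± 0.20, SE; edgeR's adjusted p = 0.0352), and without bleomycin 1 the log2 fold change was 0.52 and still passed (adjusted p = 0.0396). The counts do not separate the 2 SREBP1 isoforms.

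The INSIG genes, whose products hold SCAP back, did not pass. Insig1, itself a target of SREBP, had 63.7, 74.8, 55.3, 80.4 and 61.9 CPM in bleomycin libraries 1 to 5, against a lowest, median and highest of 41.6, 52.6 and 56.0 CPM in saline libraries. The groups overlapped through bleomycin 3 and saline 4 alone. The log2 fold change was 0.39 ± 0.13 (SE; edgeR's adjusted p = 0.0752; DESeq2's adjusted p = 0.0308). Insig2 averaged 59.7 ± 7.42 CPM in bleomycin libraries and 73.4 ± 18.0 CPM in saline libraries (SD, n = 5 and 6), with a log2 fold change of -0.30 ± 0.17 (SE; edgeR's adjusted p = 0.269).

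5 of the 6 calls were lost under a correction for GC content or without saline 1 and 4, and that of Lss was kept under both. In bleomycin libraries genes in the highest 20% of GC content stood 0.22 to 0.54 above those in the lowest 20% on the log2 scale, as medians relative to each gene's mean, against -0.67 to 0.08 in saline libraries, so that the groups did not overlap. Mvk, Scap, Srebf1 and Srebf2 lay at percentiles 94, 93, 91 and 89 of GC content among the genes tested, while Lss and Hsd17b7 lay at 60 and 18. With a correction of each library for GC content, Mvk, Scap, Srebf1 and Srebf2 lost their calls, with log2 fold changes of 0.57, 0.24, 0.45 and 0.19 (adjusted p = 0.114, 0.176, 0.147 and 0.251), and Insig1 passed (0.46, adjusted p = 0.0429). Under that correction Lss was at 1.12 and Hsd17b7 at 1.27, and both passed. That left 3 of the 30 genes that rose, beside 2.85% of all genes. Because the GC trend ran with the treatment, the correction would also remove an effect of treatment that follows GC content. A technical difference and such an effect cannot be told apart here.

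Without saline 1 and 4, which were at the low end of the saline range for Mvk, Srebf2 and Scap, Lss alone rose, beside 1.97% of all genes. Without saline 2 and 3, 9 of the 30 rose, beside 9.22% of all genes, with Mvd, Npc1 and Nr1h2 added to the 6. Without bleomycin 1, 6 rose, beside 4.67% of all genes, with Nsdhl added and Srebf2 lost. Single libraries also decided calls: Mvk lost its call without bleomycin 4, and Scap without bleomycin 2, 4 or 5. Of the 11 fits with 1 library omitted, Srebf1 passed in 3 (those omitting bleomycin 1, saline 2 or saline 6) and Srebf2 in 3 (those omitting saline 2, 3 or 6).

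**Figure D3:**
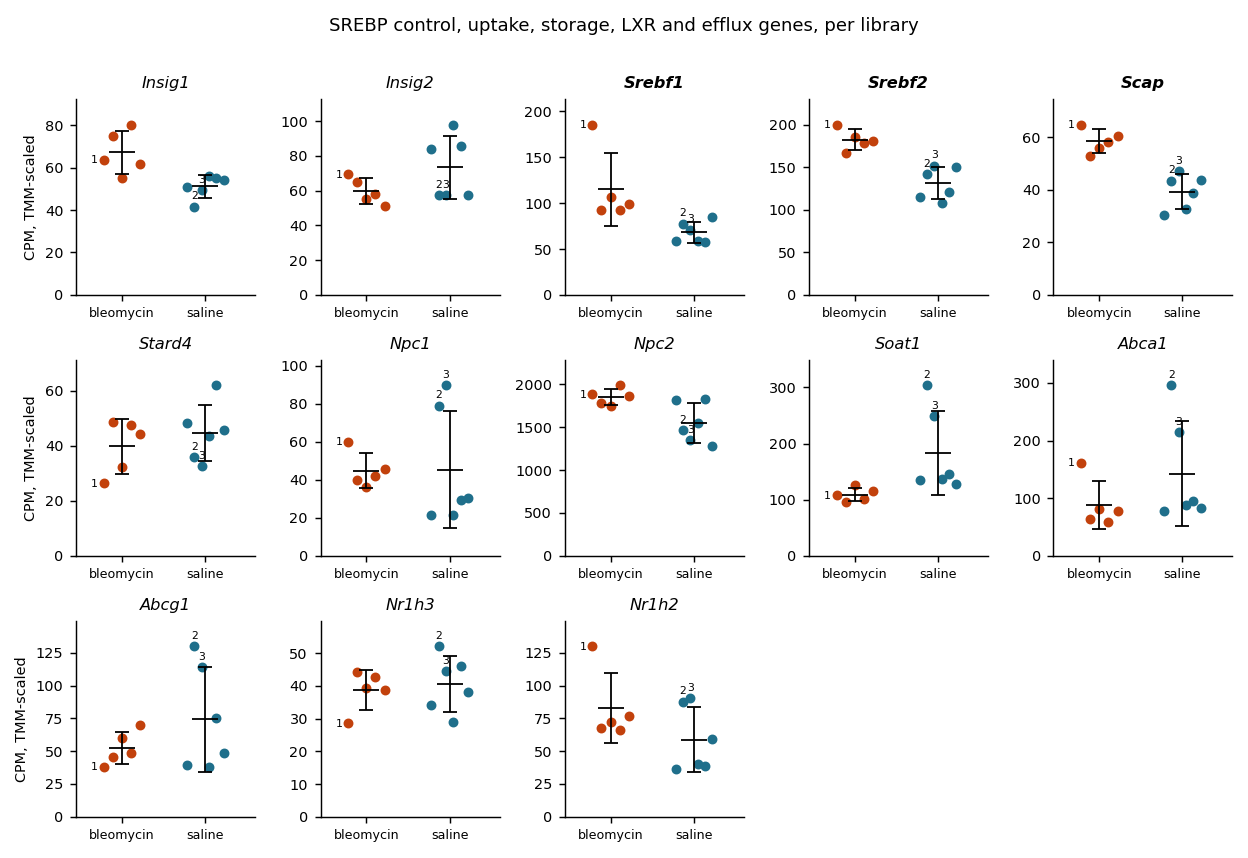
CPM after TMM scaling (y axis, from 0) of the 13 genes of SREBP control, uptake, storage, LXR and efflux in 5 bleomycin and 6 saline libraries (x axis). Points are libraries, lines are the mean ± SD, and titles in bold mark genes that rose. Saline 2 and 3 are the 2 highest saline libraries for Npc1, Soat1, Abca1, Abcg1 and Nr1h2, and bleomycin 1 is the highest bleomycin library for Srebf1, Abca1 and Nr1h2.

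Among the genes of uptake, intracellular transport and storage, none of the 4 passed (edgeR's quasi-likelihood test; 1 of them at an unadjusted p under 0.05; 1 by DESeq2). That gene was Soat1, whose enzyme esterifies cholesterol for storage in droplets. It had 108, 96.4, 125, 101 and 115 CPM in bleomycin libraries 1 to 5, against a lowest, median and highest of 128, 141 and 304 CPM in saline libraries. Every bleomycin library lay below every saline library, which was so for 4.41% of all genes tested, and the narrowest gap was from 125 CPM in bleomycin 3 to 128 CPM in saline 6. The log2 fold change was -0.75 ± 0.24 (SE; edgeR's adjusted p = 0.0686; DESeq2's adjusted p = 0.0240). Without saline 2 and 3, at 304 and 249 CPM, it was -0.32 (edgeR's adjusted p = 0.0921). Leaving out saline 6 gave -0.83, which passed (adjusted p = 0.0426).

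Npc2, which passes cholesterol to NPC1 inside the lysosome, averaged 1851 ± 93.5 CPM in bleomycin libraries and 1547 ± 232 CPM in saline libraries (SD, n = 5 and 6; log2 fold change 0.26). Npc1, the lysosomal membrane transporter, had 60.1, 39.9, 36.4, 42.0 and 45.5 CPM in bleomycin libraries 1 to 5, against a lowest, median and highest of 21.5, 30.0 and 89.7 CPM in saline libraries. Saline 2 and 3 lay above all bleomycin libraries and the other 4 saline libraries below all of them. The log2 fold change was -0.02 over all libraries (edgeR's adjusted p = 0.981). With saline 2 and 3 left out it was 0.80 and passed (adjusted p = 0.0187). Stard4, a carrier of cholesterol in the cytosol, had a log2 fold change of -0.17 ± 0.20 (SE; adjusted p = 0.606).

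Of the 4 genes of LXR and efflux, none passed (edgeR's quasi-likelihood test; 0 at an unadjusted p under 0.05; 0 by DESeq2 or limma). Abca1, the exporter that loads cholesterol onto lipoprotein particles, had 161, 63.9, 81.2, 58.7 and 77.7 CPM in bleomycin libraries 1 to 5, against a lowest, median and highest of 78.0, 91.5 and 296 CPM in saline libraries. Bleomycin 1 was the highest bleomycin library, and saline 2 and 3, at 296 and 214 CPM, were above it. The log2 fold change was -0.68 ± 0.41 (SE; edgeR's adjusted p = 0.274), -1.02 when bleomycin 1 was left out (adjusted p = 0.121) and 0.04 when saline 2 and 3 were (adjusted p = 0.924).

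Abcg1, the partner exporter, had 38.3, 45.4, 59.9, 48.5 and 69.7 CPM in bleomycin libraries 1 to 5, against a lowest, median and highest of 37.6, 62.1 and 130 CPM in saline libraries. Saline 2 and 3 were again the highest, and the log2 fold change of -0.50 ± 0.34 (SE; edgeR's adjusted p = 0.331) was 0.06 without them. Nr1h3, which encodes LXR alpha, the form prominent in macrophages, averaged 38.7 ± 6.08 CPM in bleomycin libraries and 40.6 ± 8.45 CPM in saline libraries (SD, n = 5 and 6; log2 fold change -0.07).

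Nr1h2, which encodes the broadly expressed LXR beta, had 130, 67.5, 72.4, 66.5 and 77.1 CPM in bleomycin libraries 1 to 5, against a lowest, median and highest of 36.5, 49.5 and 90.2 CPM in saline libraries. Its log2 fold change was 0.49 ± 0.29 (SE; edgeR's adjusted p = 0.264). With saline 2 and 3 left out it was 0.92 and passed (adjusted p = 0.0237). It lay at percentile 97 of GC content, and with the GC correction its log2 fold change was 0.17 (adjusted p = 0.685).

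Saline 2 and 3 were both above the other 4 saline libraries for 7 of the 30 genes (Mvd, Dhcr7, Npc1, Soat1, Abca1, Abcg1 and Nr1h2), beside 26.1% of all genes tested. They were both below them for 8 (Acat2, Hmgcs1, Idi1, Fdft1, Sqle, Msmo1, Insig1 and Stard4), beside 23.0% of all genes. Both counts are near the shares over all genes. The CPM summed over the 21 markers of recruited monocytes and macrophages was 4646 to 7590 in bleomycin libraries, against 5255 to 14023 in saline libraries, with 14023 and 12004 in saline 2 and 3 and 13468 in saline 5. Of these markers 2 of 21 fell and 0 rose (median log2 fold change -1.65; edgeR's quasi-likelihood test; 1 higher and 14 lower at an unadjusted p under 0.05; 1 higher and 11 lower by DESeq2), and none was at 0 in any library. Without saline 2 and 3 the median was -0.26, with 2 that fell. Their part in the values of Soat1, Npc1, Abca1 and Abcg1 was not tested.

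**Figure D4:**
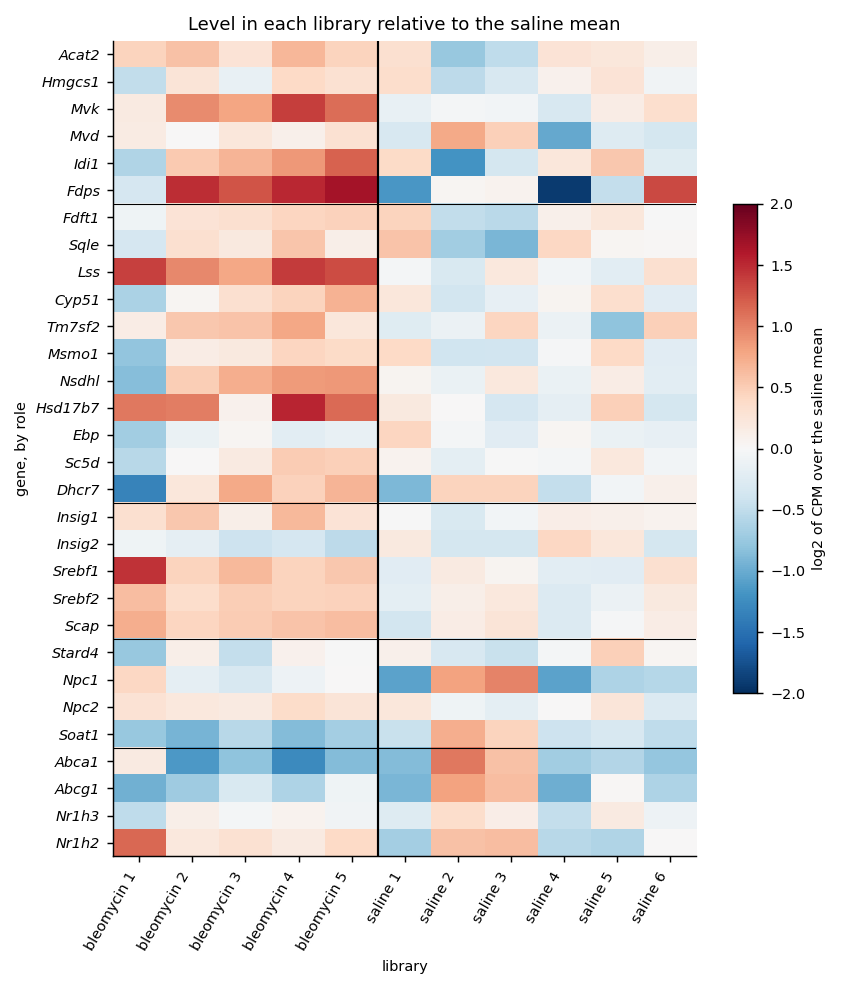
Log2 of the CPM over the saline mean (colour) of each of the 30 genes (rows, by role) in 5 bleomycin and 6 saline libraries (columns). Lss, Srebf2 and Scap are red in all 5 bleomycin libraries, many sterol enzymes are blue in bleomycin 1, and Npc1, Soat1, Abca1 and Abcg1 are red in saline 2 and 3.

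Markers of other cell types were counted beside 4.63% of all genes that rose and 5.7% that fell. The 15 alveolar type 1 markers summed to 7314 to 8876 CPM in bleomycin libraries, against 2359 to 6889 CPM in saline libraries, and 7 rose, among them Ager (1948 ± 260 CPM in bleomycin libraries and 687 ± 320 CPM in saline libraries, SD, n = 5 and 6). The 16 type 2 markers summed to 23524 to 34756 CPM in bleomycin libraries, against 12547 to 45471 CPM in saline libraries, and 2 rose, Sftpb and Abca3. Sftpc, the gene that defines type 2 cells, averaged 16129 ± 3850 CPM in bleomycin libraries and 14988 ± 8076 CPM in saline libraries (SD, n = 5 and 6). The 17 alveolar macrophage markers summed to 752 to 1525 CPM in bleomycin libraries, against 673 to 1093 CPM in saline libraries. Chil3 alone had 1194 CPM in bleomycin 1, where the sum was 1525. The median log2 fold change of the 17 was -0.49, and 14 were below 0. Of the 17, 3 fell, and 1 to 4 fell when 1 library was left out. Of 15 lymphocyte markers 9 fell, and 6 to 10 fell when 1 library was left out. Of 19 endothelial markers 4 rose, with 0 to 6 when 1 library was left out and 0 with the GC correction. Of 17 fibroblast markers 3 rose and of 16 club cell markers 3 fell, and each of these counts was 0 to 3 when 1 library was left out. None of the markers in these lists was at 0 in any library, and their part in the results was not tested.

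Levels of different genes were compared per kilobase of the longest coding transcript. Npc2 stood far above the rest, at 561 ± 28.4 CPM per kilobase in bleomycin libraries and 469 ± 70.4 in saline libraries (SD, n = 5 and 6). Of the other 29 genes, Ebp was the highest in saline libraries, at 29.3 ± 5.11 CPM per kilobase in bleomycin libraries and 33.9 ± 6.04 in saline libraries, and Msmo1, Nr1h2, Insig2, Hmgcs1 and Srebf2 followed, each differing from its neighbour in that order by less than the saline SD of either. At the low end were Fdps, Hsd17b7 and Lss. The place of Fdps is uncertain, since it shares exon bases with Gm43738 and reads there may not have been counted. Lss differed from the next genes, Tm7sf2 and Dhcr7, by less than the saline SD of those genes. Lss was at 9.55 ± 1.74 CPM per kilobase in bleomycin libraries and 4.20 ± 0.71 in saline libraries, and Hsd17b7 at 4.23 ± 1.33 in bleomycin libraries and 2.06 ± 0.487 in saline libraries. Srebf2, at 36.0 ± 2.39 in bleomycin libraries and 25.9 ± 3.74 in saline libraries, was above Srebf1, at 26.8 ± 9.25 in bleomycin libraries and 15.9 ± 2.66 in saline libraries.

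**Figure D5:**
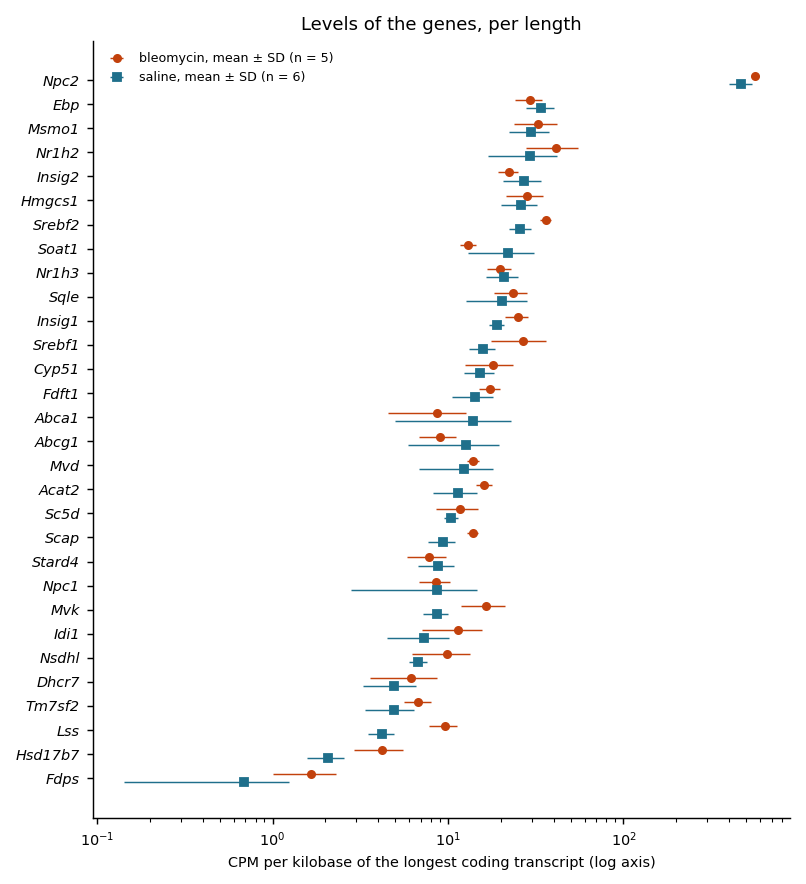
Mean CPM per kilobase of the longest coding transcript (x axis, log axis) of the 30 genes, ordered by their saline mean (y axis), in bleomycin (circles, n = 5) and saline libraries (squares, n = 6), with SD as bars. Npc2 lies at 561 in bleomycin libraries and 469 in saline libraries, and the next highest mean is 41.4, that of Nr1h2 in bleomycin libraries.

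Neighbouring genes were taken from lists outside the 32. Acly, which makes cytosolic acetyl-CoA from citrate, rose by 0.46 ± 0.11 on the log2 scale (SE; edgeR's adjusted p = 0.0284). Pgrmc1, a haem-binding protein that assists sterol enzymes, was at -0.42 ± 0.33 and did not pass.

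Of 20 further genes that act on SREBP or LXR, 0 rose and 1, Erlin1, fell by edgeR's quasi-likelihood test. Over all genes tested, 4.63% rose and 5.7% fell. At an unadjusted p under 0.05, 1 was higher and 1 lower, and DESeq2 called 1 as higher and 1 as lower. The median log2 fold change of the 20 was -0.07. Erlin1, an endoplasmic reticulum protein that helps to hold SREBPs back, averaged 33.3 ± 5.24 CPM in bleomycin libraries and 45.2 ± 2.93 CPM in saline libraries (SD, n = 5 and 6; log2 -0.44 ± 0.13, SE; edgeR's adjusted p = 0.0456). Of the 11 fits with 1 library omitted it passed in 2, those omitting bleomycin 1 or saline 6. It also lost its call with limma, with total counts, with the GC correction, with the replicate number as a block, without saline 2 and 3, and without saline 1 and 4. Of 36 further genes of cholesterol uptake, transport and efflux, 2 rose and 0 fell (edgeR's quasi-likelihood test; 6 higher and 4 lower at an unadjusted p under 0.05; 4 higher and 3 lower by DESeq2), beside 4.63% of all genes that rose and 5.7% that fell, with a median log2 fold change of 0.17 and no call with the replicate number as a block. Scarb1, the receptor for high-density lipoprotein, averaged 115 ± 31.0 CPM in bleomycin libraries and 44.4 ± 15.7 CPM in saline libraries (SD, n = 5 and 6; log2 1.38 ± 0.27, SE; adjusted p = 0.0115). Lpcat3, an LXR target that remodels phospholipids, rose by 0.63 ± 0.14 on the log2 scale (adjusted p = 0.0193).

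Of 27 genes of fatty acid and phospholipid synthesis, which SREBP1 also drives, 4 rose and 1 fell by edgeR's quasi-likelihood test. Over all genes tested, 4.63% rose and 5.7% fell, and the median log2 fold change of the 27 was 0.25. At an unadjusted p under 0.05, 12 were higher and 2 lower, and DESeq2 called 5 as higher and 2 as lower. When 1 library was left out, 2 to 7 rose, and with the replicate number as a block 1 rose. Fasn, the fatty acid synthase, averaged 277 ± 59.1 CPM in bleomycin libraries and 109 ± 23.7 CPM in saline libraries (SD, n = 5 and 6; log2 1.35 ± 0.19, SE; edgeR's adjusted p = 0.00285). Scd2, a desaturase, rose by 0.99 ± 0.23 and Acacb, an acetyl-CoA carboxylase, by 0.94 ± 0.23 on the log2 scale. Scd1, the most highly expressed, was at 0.86 ± 0.35 and did not pass (adjusted p = 0.125). No test compared these lists with the 30 genes or with the rest of the table.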

How the data were processed

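Polyadenylated RNA of whole lungs was sequenced in pairs after second-strand synthesis with dUTP, per the labels' protocols. For every gene and library, the authors' table held a read count and an FPKM. HISAT2 2.2.1, HTSeq 2.0.2, FastQC and GRCm39 are named in the submitters' processing notes (annotation and strand setting: not given in the sources used here). As deposited, the counts were whole and unnormalized and summed to 13226339 to 19009284 per library, and the intervals given cover the spread between libraries. The deposited FPKM values proved to use a gene length that equals the exon length summed over all annotated transcripts (within 2% for 96.9% of 14677 genes), so they were used only for an alternative fit and a filter, and levels between genes are CPM per kilobase of the longest coding transcript in GENCODE M21.

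Samples were grouped by their titles. The test was edgeR 4.0.16 in R 4.3.3: filterByExpr with a count minimum of 10, TMM, the two-sided quasi-likelihood test without covariates, and Benjamini-Hochberg adjustment at 0.05. The SE is the absolute log2 fold change over the square root of the F statistic. The test was also run on simulated counts, with larger changes and less spread between libraries than in these data. That run does not show how well changes of the size seen here are found. No 2 libraries agreed within sampling noise (lowest chi-square per degree of freedom 17.6, saline 1 and 4). Saline 2 and 3 were the next closest, at 25.8, while values between these 2 pairs ran from 390 to 468. The saline libraries were thus clustered, and the test took all of them as independent. Why these libraries were alike was not tested. Alternatives were DESeq2 1.42.0, limma 3.58.1 on log2(FPKM + 1) and log2(FPKM + 0.1), other filters and scalings, a replicate block, each library left out, saline 2 and 3 or 1 and 4 left out, a threshold of 0.01, and a GC correction added after seeing the data. The members and all gene lists were chosen with earlier results of these data known. All 30 genes found are described; of every other list, the genes named are up to 3 past the threshold, by size of change, and the gene with the highest mean FPKM. The counts of the list of other sterol pathway genes are not reported here.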

Additional observations from a re-analysis of the deposited data

Results flagged for a closer look

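In 5 cases 1 library stood far from the rest of its group in CPM, by Dixon's criterion at the 95% level. Of 60 groups examined (30 genes in 2 groups), chance flags about 1 in 20, or 3. In bleomycin 1, Srebf1 was at 186 CPM, with the other 4 bleomycin libraries between 92.7 and 107 CPM. Abca1 was at 161 CPM in bleomycin 1, with the other 4 between 58.7 and 81.2 CPM. Nr1h2 was at 130 CPM in bleomycin 1, with the other 4 between 66.5 and 77.1 CPM. In saline 1, Ebp was at 79.3 CPM, with the other 5 saline libraries between 50.4 and 60.7 CPM. In saline 6, Fdps was at 2.38 CPM, with the other 5 between 0.254 and 1.01 CPM.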

How the results depend on the processing

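The count of 1496 genes called over the table (6 of the 30 cholesterol genes rose, 0 fell) was 732 with a stricter filter on FPKM, 961 with a GC correction, 2923 with DESeq2, 247 at a threshold of 0.01, 2778 with saline 2 and 3 left out, 876 with saline 1 and 4 left out, and 557 to 2118 when 1 library was left out. The cholesterol genes that rose numbered 1 at the threshold of 0.01, 1 without saline 1 and 4, 3 with the GC correction and 1 to 7 when 1 library was left out, and those that fell numbered 1 with DESeq2 and 0 to 1 when 1 library was left out. Lss passed in each of these alternatives in which it was tested (highest adjusted p 0.0286), and the stricter filter left it out.

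No pairing by replicate number was seen: deviations of same-numbered libraries correlated at -0.19 to 0.01. Libraries with different numbers were not correlated for comparison. With the replicate number as a block, 506 genes were called and 1 cholesterol gene, Lss, rose.

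No gene that passed in the fit reported changed sign under any alternative. Genes that did not pass did so as follows. Npc1 was above 0 with total counts (0.0899), upper-quartile scaling (0.0062), the replicate block (0.164), limma (0.203 and 0.362 with pseudocounts of 1 and 0.1) and without saline 2 and 3 (0.80), and it ran from -0.16 to 0.30 when 1 library was left out. Nr1h3 was above 0 with total counts (0.0988), limma (0.0856 and 0.112) and without saline 2 and 3 (0.0737), and ran from -0.148 to 0.0222 when 1 library was left out. Stard4 was above 0 with total counts (0.0366), the GC correction (0.0734) and limma with a pseudocount of 1 (0.0027). Mvd was below 0 with the GC correction (-0.142) and without saline 1 and 4 (-0.0457). Without saline 2 and 3, Abca1 (0.0408) and Abcg1 (0.0577) were above 0, and Sqle (-0.0817), Hmgcs1 (-0.0677) and Msmo1 (-0.033) below. The cause was not tested. Total counts moved the median of all genes to 0.14, beside -0.04 with TMM, and the median of the 30 to 0.47. Fdps had 4 to 58 counts per library, which limits the precision of its values.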

Other observations

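In the deposited FPKM table, genes with many annotated transcripts were divided by a length that no transcript has. Over all genes this length was a median of 2.73 times the longest coding transcript. For Nr1h2, with 18 annotated transcripts, the transcripts summed to 19801 bases and the longest coding transcript had 1999, so that it ranked 22 of the 30 genes by saline FPKM and 4 by CPM per kilobase. For Abca1, with 2 transcripts, the ranks were 4 by FPKM and 15 by CPM per kilobase. Comparisons of 1 gene between libraries do not depend on this length, except in the limma fits, where a pseudocount was added to the FPKM. The stricter filter used the FPKM, so this length also affected which genes were tested in that fit. It tested 9 of the 17 synthesis enzymes, and 0 of them rose.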
